A study of Mus musculus with 6 samples.

Results

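Chamber identity genes tell atrial from ventricular heart muscle, and 8 of them were examined here: Dkk3, Bmp10, Nr2f1, Nr2f2, Tbx5, Hey2, Irx4 and Pam. They were taken by gene name, as every probe set to which the array's annotation gives exactly 1 symbol and that symbol is a listed gene. All 8 genes were measured, out of 18193 genes with 1 symbol, and 15 of the 45037 tested probe sets belonged to them. The tissue was the apex of the heart ventricles of mice with a transgene for a human mitochondrial progesterone receptor, PR-M. The arrays fall into a PR-M expressing group and a PR-M non-expressing group of 3 each, and each array carried 1 RNA sample on the Affymetrix Mouse Genome 430 2.0 platform. Both groups had received 2.5 mg progesterone in oil under the skin, with the treatment days recorded as 19 to 21. No array therefore stands for an untreated heart. What drives the transgene, how its expression was established, and the strain, age and sex of the mice are not stated in the labels. Nor is it stated that each sample stands for a different mouse, so the spread behind each p-value is that between samples and may be technical.

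As background, atria and ventricles arise from separate programmes of transcription factors. Nr2f1 and Nr2f2, nuclear receptors also called COUP-TFI and COUP-TFII, hold atrial identity, and mouse atrial muscle that loses Nr2f2 takes on ventricular features. Hey2, a Notch-responsive repressor, holds down atrial genes in ventricular muscle, and Irx4, a homeodomain factor, is restricted to ventricular muscle. Tbx5, a T-box factor, is needed for the atria and the left ventricle and keeps a higher level in atria. Bmp10, a ligand of the bone morphogenetic protein family, is restricted in the adult mouse heart to atrial muscle, mainly of the right atrium. Dkk3, a secreted glycoprotein related to the Dickkopf Wnt inhibitors, and Pam, an enzyme that amidates peptides and is a main membrane protein of atrial secretory granules, are abundant in atria. None of these roles is a result of the present arrays.

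Some features of the arrays bear on every value given here. Pearson correlations between arrays over all tested probe sets lay between 0.992 and 0.997. The sample titles carry 3 prefixes, 1 shared by the expressing arrays, 1 of non-expressing replicate 1 alone and 1 of the other non-expressing arrays, so prefix and group cannot be told apart. Non-expressing replicate 1 also stood apart in several chamber genes. The 18S ribosomal RNA controls averaged 8.31 ± 0.22 in PR-M expressing samples, against 9.88 ± 0.38 in PR-M non-expressing samples (SD, n = 3 each), and the groups did not overlap. For beta-actin the 3′ probe set exceeded the 5′ probe set, a sign of partial degradation or short labelled copies, by 1.23 ± 0.05 in PR-M expressing samples and by 1.38 ± 0.07 in PR-M non-expressing samples (SD, n = 3 each), again with no overlap. For Gapdh this excess was 0.17 ± 0.06 in PR-M expressing and 0.25 ± 0.07 in PR-M non-expressing samples (SD, n = 3 each). There the groups overlapped. The part of these differences in the results was not tested. As a rough mark for a signal of no transcript, 81 probe sets of olfactory, vomeronasal and trace amine receptor genes were used, and their 95th percentile lay between 5.98 and 6.11 over the arrays. Probe sets differ in affinity, so the mark is not exact, and levels of different probe sets are not ranked against each other.

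None of the 8 genes passed the test between the groups. None of the 15 probe sets passed either (limma, Benjamini-Hochberg over all probe sets, threshold 0.05), where 0.0133% of all probe sets passed. Over genes 0.0660% passed. At an unadjusted p under 0.05 there were 4 of the 15 probe sets, both of Dkk3 and 1 each of Tbx5 and Nr2f2, against 12.2% of all probe sets. The expressing arrays lay above all non-expressing arrays in 4 of the 15, against 8.27% of all probe sets, and below them all in 1, against 10.3%. Probe sets of a gene share its transcript and are not independent. The median log2 difference of the 15 was 0.07 against -0.02 over all probe sets, with 6 of the 15 values from Nr2f2 and genes of both chambers pooled. The level lay above the receptor mark in all 6 arrays for 4 probe sets, of Nr2f2, Tbx5, Irx4 and Pam, and below it in all 6 arrays for 8.

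**Figure D1:**
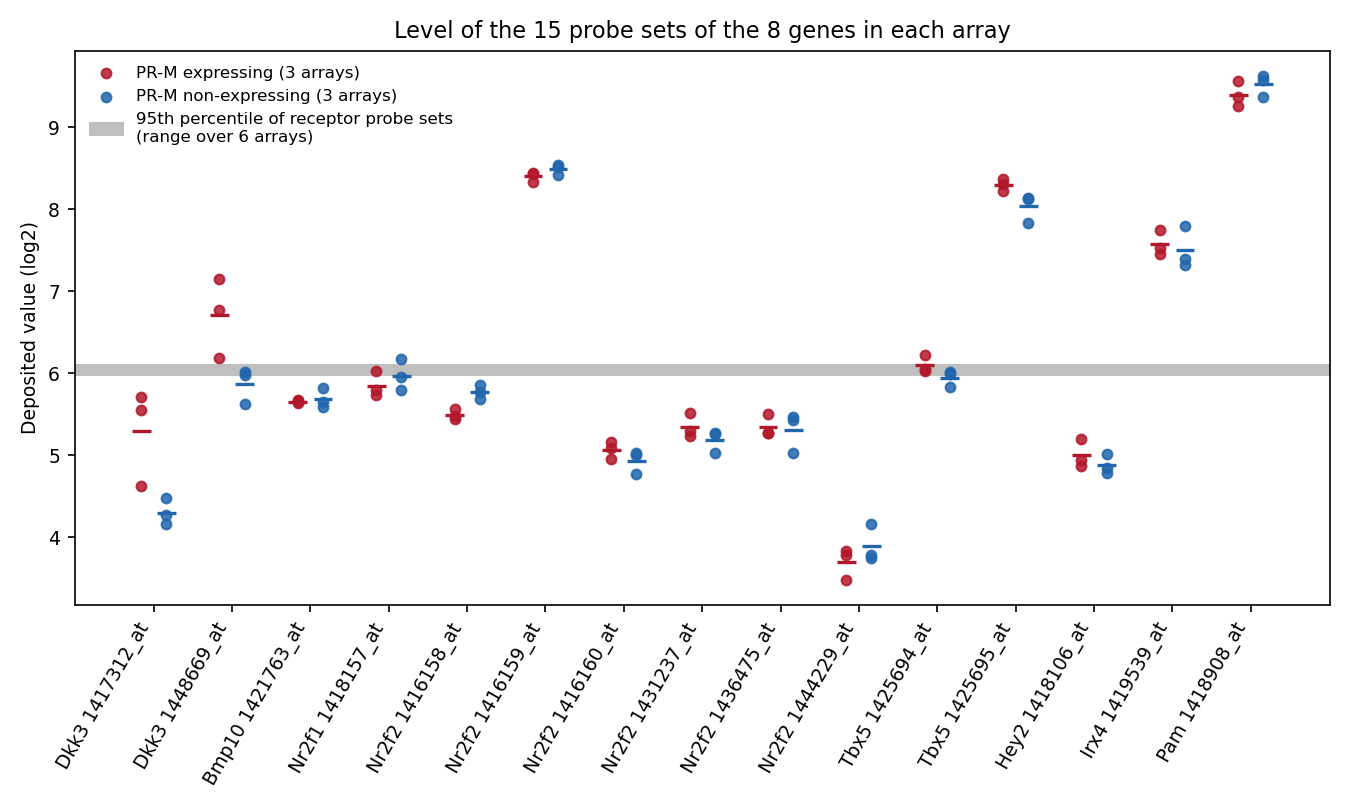
Deposited log2 value of each of the 15 probe sets in the 3 PR-M expressing arrays (red) and the 3 non-expressing arrays (blue); short bars are group means and the grey band is the range over arrays of the 95th percentile of the receptor probe sets, 5.98 to 6.11. The groups part without overlap for both Dkk3 and both Tbx5 probe sets and for Nr2f2 1416158_at, and no probe set passed the test.

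The largest difference among the 8 genes was that of Dkk3, which was higher in the expressing arrays on both of its probe sets without passing the test. The brighter one, 1448669_at, was at 6.18, 7.16 and 6.78 in expressing replicates 1 to 3 and at 5.98, 6.02 and 5.62 in non-expressing replicates 1 to 3. All 3 expressing arrays lay above all 3 non-expressing arrays, with replicate 2 the highest and replicate 1 only a little above the highest non-expressing array. The log2 difference was 0.83 (SE 0.22, 95% interval 0.32 to 1.34), a 1.78-fold difference, with a limma adjusted p of 0.237 over probe sets and 0.282 over genes. The other probe set, 1417312_at, was at 4.62, 5.71 and 5.55 in the expressing arrays, against 4.48, 4.16 and 4.27 in the non-expressing arrays. It had the same order among the expressing arrays and again no overlap, but it lay under the receptor mark in every array. Its log2 difference was 0.99 (SE 0.25, limma adjusted p 0.215). Without expressing replicate 1 it passed, with a log2 difference of 1.32 (limma adjusted p 0.0368), while 1448669_at did not (1.09, limma adjusted p 0.185). Without non-expressing replicate 1 the differences were 0.88 for 1448669_at and 1.08 for 1417312_at. The non-expressing arrays lay below the receptor mark on both probe sets, so the fold is uncertain, while the 3 expressing arrays lay above it on 1448669_at. In whole tissue, more cells of a type and more RNA per cell cannot be told apart.

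Bmp10, the ligand restricted to atrial muscle, showed no difference beyond its spread. Its single probe set, 1421763_at, was at 5.67, 5.63 and 5.66 in the expressing arrays and at 5.65, 5.82 and 5.59 in the non-expressing arrays. All 3 expressing values fell inside the range of the non-expressing ones, and all 6 lay under the receptor mark. The log2 difference was -0.03 (SE 0.08, limma adjusted p 0.909), with an unadjusted 95% interval from -0.22 to 0.16. The upper end of this interval is a 1.12-fold higher signal in the expressing arrays. With the signal under the mark, it does not bound the difference in transcript. Expressing replicate 2, the highest array for Dkk3, had a Bmp10 value of 5.63. No array of atrial RNA was examined here, so how strongly this probe set would answer to atrial Bmp10 was not tested.

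The sequence around the start of Bmp10 is shown because it is the member with the narrowest known site of expression. It comes from RefSeq on GRCm38.p6, plus strand, chr6:87428744-87429043, from 250 bases before to 50 bases after the start site, written 5′ to 3′. Capitals mark AGATAA, a form of the site of GATA factors, found on the strand of the gene at 219 and 33 bases before the start.
Bmp10: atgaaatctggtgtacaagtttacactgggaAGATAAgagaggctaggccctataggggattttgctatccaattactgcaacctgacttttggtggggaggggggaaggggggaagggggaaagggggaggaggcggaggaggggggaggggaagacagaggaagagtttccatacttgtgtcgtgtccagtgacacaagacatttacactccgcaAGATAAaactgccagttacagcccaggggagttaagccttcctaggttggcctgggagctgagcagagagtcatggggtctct
Sequences were found for 6 of the 8 genes, without Dkk3 and Tbx5. Both strands of these windows were searched for AGATAA, the T-box core GGTGTG, the nuclear receptor motif AGGTCA and the E-box CACGTG, and no window held more than 1 kind of these motifs. AGATAA was found in the window of Bmp10 only, against 11.2% of 32851 such RefSeq windows, and GGTGTG in that of Hey2 only, against 19.0%. AGGTCA, held by 16.3% of all windows, and CACGTG, held by 7.15%, were found in none of them. A match is a run of letters and no measure of binding.

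Pam, the amidating enzyme, was bright in both groups and did not differ beyond its spread. Its probe set 1418908_at was at 9.25, 9.37 and 9.56 in the expressing arrays and at 9.63, 9.57 and 9.37 in the non-expressing arrays, and the groups overlapped. The log2 difference was -0.13 (SE 0.11, 95% interval -0.37 to 0.11, limma adjusted p 0.654), and it was -0.08 without non-expressing replicate 1. Pam is also made outside atrial muscle, so its level does not mark a chamber by itself.

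The COUP factors of atrial identity were not higher in the expressing arrays. Nr2f1 was at 6.02, 5.80 and 5.73 in the expressing arrays, against 5.79, 5.95 and 6.17 in the non-expressing arrays, and 1 array of each group reached the receptor mark. Its log2 difference was -0.12 (SE 0.12, limma adjusted p 0.717), and it was -0.21 without non-expressing replicate 1. Nr2f2 has 6 probe sets, of which 1416159_at was well above the mark, at 8.33, 8.45 and 8.43 in the expressing arrays and 8.54, 8.42 and 8.52 in the non-expressing arrays. The groups overlapped there, with a log2 difference of -0.09 (SE 0.08, 95% interval -0.27 to 0.09, limma adjusted p 0.682). The other 5 lay under the mark in every array, with log2 differences from -0.28 to 0.16, and 3 of the 6 were higher and 3 lower in the expressing arrays. Among these dim ones 1416158_at was at 5.44, 5.56 and 5.48 in the expressing arrays and at 5.86, 5.68 and 5.77 in the non-expressing arrays. The groups parted there, yet the test was not passed (log2 -0.28, SE 0.08, limma adjusted p 0.267). Nr2f2 is also a factor of venous and lymphatic endothelium, and the markers of those cells are given with the other cell types.

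Tbx5 was slightly higher in the expressing arrays on both probe sets, and neither passed. The brighter one, 1425695_at, was at 8.23, 8.37 and 8.31 in the expressing arrays and at 7.84, 8.13 and 8.14 in the non-expressing arrays. The groups did not overlap, and non-expressing replicate 1 was the lowest array. The log2 difference was 0.27 (SE 0.10, 95% interval 0.03 to 0.50, limma adjusted p 0.357 over probe sets and 0.394 over genes), and it was 0.17 without non-expressing replicate 1. The dimmer 1425694_at was at 6.03, 6.05 and 6.22 in the expressing arrays, against 6.02, 5.99 and 5.84 in the non-expressing arrays, close to the receptor mark (log2 0.15, SE 0.09, limma adjusted p 0.519). Even the upper bound for 1425695_at is a 1.41-fold difference.

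The ventricular factors Hey2 and Irx4 showed no difference beyond their spread. Irx4 was at 7.75, 7.45 and 7.53 in the expressing arrays and at 7.80, 7.32 and 7.39 in the non-expressing arrays. Replicate 1 was the highest array in each group, and these numbers pair no samples. The log2 difference was 0.07 (SE 0.14, 95% interval -0.24 to 0.39, limma adjusted p 0.867), and it was 0.22 without non-expressing replicate 1. Hey2 lay under the receptor mark in all 6 arrays, at 4.87, 5.20 and 4.94 in the expressing arrays, against 4.85, 4.79 and 5.02 in the non-expressing arrays (log2 0.12, SE 0.11, limma adjusted p 0.701).

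**Figure D2:**
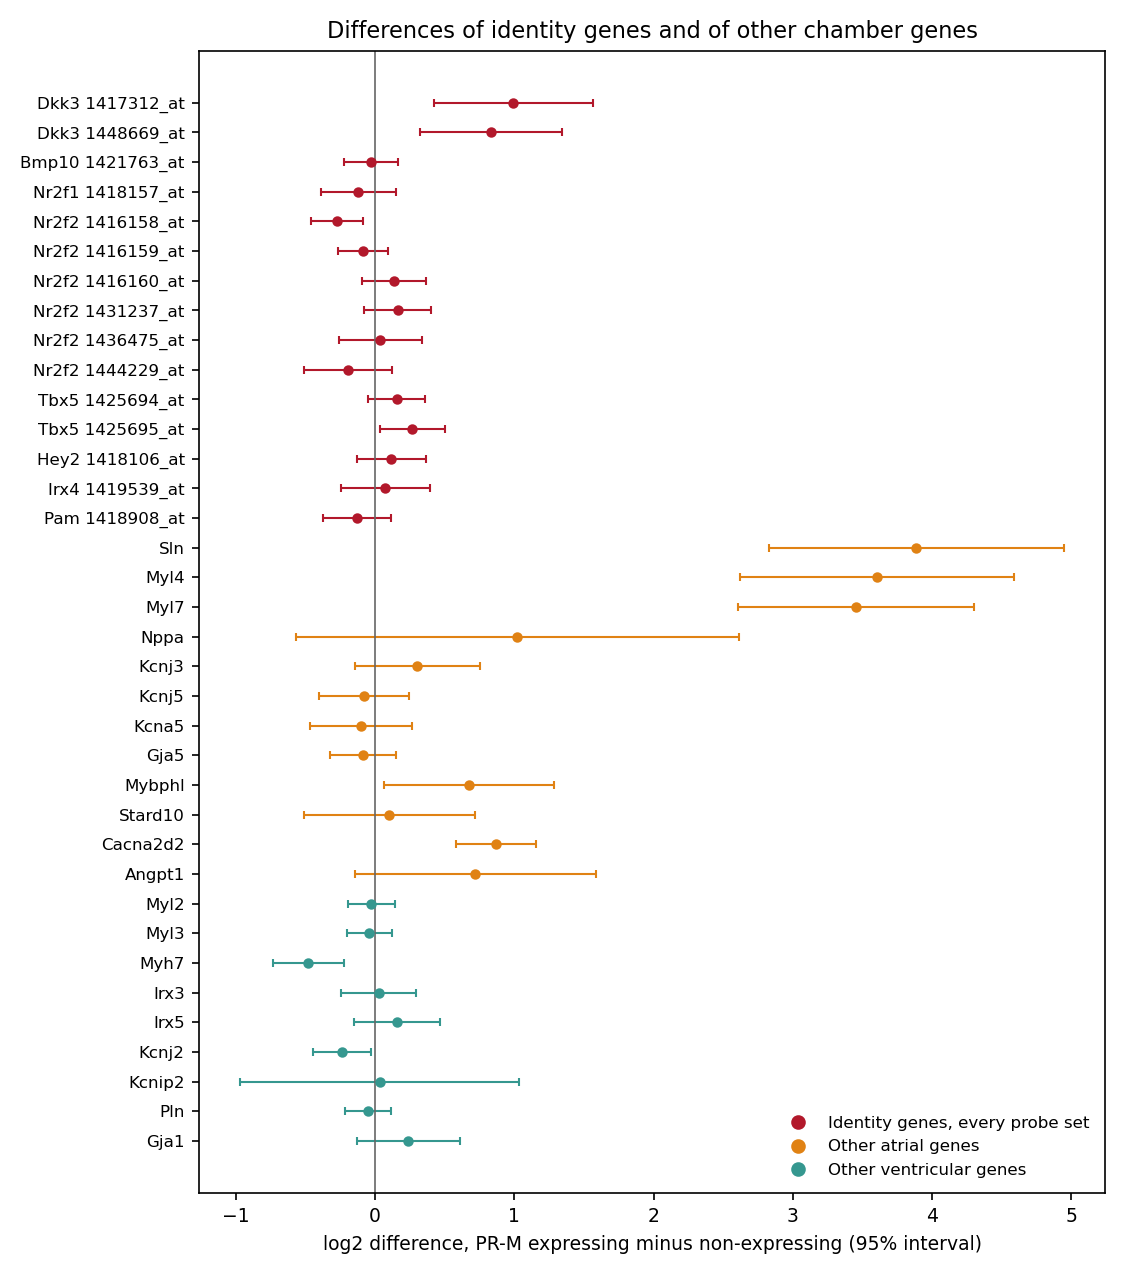
Log2 difference, PR-M expressing minus non-expressing, with its 95% interval from the limma fit for the 15 probe sets of the identity genes (red), 12 other atrial genes (orange) and 9 other ventricular genes (green). The intervals of Sln, Myl4 and Myl7 begin at 2.61 or higher, those of the 2 Dkk3 probe sets lie between 0.32 and 1.56, and that of Bmp10 spans 0.

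The identity genes were set beside other genes known to be higher in atrial than in ventricular muscle. Of the 14 listed, 12 were measured and 3 rose, Sln, Myl4 and Myl7, while 9 did not pass over all genes and none fell. Adjusted over all probe sets, as for the identity genes, none of the 3 passed, with limma adjusted p of 0.0628 for Sln, 0.0628 for Myl4 and 0.0554 for Myl7. The list was drawn up with the behaviour of Sln, Myl4, Myl7 and Nppa in these arrays known. Its count, median and share without overlap are therefore no independent evidence. The list median was 0.70 against -0.02 over all genes, and the groups did not overlap, expressing higher, in 5 of 12, against 8.16% of all genes. Sln, Myl4 and Myl7 are among these 5. Sln, which encodes the calcium pump inhibitor sarcolipin, was at 8.14, 10.24 and 8.38 in the expressing arrays and at 4.99, 5.17 and 4.94 in the non-expressing arrays (log2 3.89, limma adjusted p 0.0451 over genes). The non-expressing values lay under the receptor mark, so the size of this difference is uncertain. Myl7, an atrial myosin light chain gene, was at 9.22, 10.96 and 9.79 in the expressing arrays, against 6.68, 6.26 and 6.66 in the non-expressing arrays (log2 3.45, limma adjusted p 0.0348 over genes). In both genes expressing replicate 2 was the highest array, as in both Dkk3 probe sets and in the adipocyte marker Adipoq. Myl4, the other atrial light chain gene, was at 9.99, 11.72 and 9.96 in the expressing arrays, against 6.57, 7.28 and 7.01 in the non-expressing arrays (log2 3.60, limma adjusted p 0.0451 over genes). Replicate 2 led there too. The second probe set of Myl4, 1457126_at, differed by 0.02 close to the mark, and that of Sln, 1420883_at, by 0.14 under it, and with probe sets averaged the differences were 1.81 for Myl4 and 2.02 for Sln. With the prefix as a random block, none of the 3 passed (lowest limma adjusted p 0.0882), and leaving out expressing replicate 3 or non-expressing replicate 1, 2 or 3 ended all 3 calls. Leaving out expressing replicate 1 ended that of Myl4. With 1 array left out the differences were 3.23 to 4.28 for Sln, 3.02 to 3.90 for Myl4 and 2.97 to 3.84 for Myl7. Without non-expressing replicate 1 the gene of the list that passed was Angpt1, an angiopoietin gene named after its values were seen, at a log2 difference of 1.25 (limma adjusted p 0.0282), against 0.72 with all arrays.

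Cacna2d2 and Mybphl had the lowest p among the atrial genes that did not pass. Cacna2d2, a calcium channel subunit gene, was at 6.81, 7.25 and 6.83 in the expressing arrays, against 6.12, 6.17 and 6.01 in the non-expressing arrays, and the groups did not overlap (log2 0.87, SE 0.13, limma adjusted p 0.0736 over genes). It passed with an intensity trend and robust prior (limma adjusted p 0.0406) and with array weights (0.0445). Its other 2 probe sets were dim and differed by -0.17 and -0.08. Mybphl, a myosin-binding protein gene, was at 6.63, 7.62 and 6.40 in the expressing arrays, against 6.13, 6.24 and 6.24 in the non-expressing arrays (log2 0.68, SE 0.27, limma adjusted p 0.403 over genes). Nppa, the atrial natriuretic peptide gene, was at 9.07, 11.27 and 10.24 in the expressing arrays and at 10.74, 8.39 and 8.39 in the non-expressing arrays. The groups of Nppa overlapped because non-expressing replicate 1 was high, and the log2 difference of 1.02 (limma adjusted p 0.603 over genes) was 1.80 without that array (limma adjusted p 0.213). The differences of the 12 genes ranged from -0.10 to 3.89, with 9 positive. The negative ones were Kcna5 (-0.10), Gja5 (-0.09) and Kcnj5 (-0.08), and Stard10 (0.10) and Kcnj3 (0.30) were positive, all with overlap. Of these, Gja5 lay under the receptor mark in all arrays and the others above it. Without non-expressing replicate 1, Kcnj5 differed by 0.06, Stard10 by -0.215 and Kcnj3 by 0.56. Of the 6 identity genes of the atria, the brightest probe sets of Dkk3 (0.83) and Tbx5 (0.27) had positive differences without overlap, and those of Bmp10 (-0.03), Nr2f1 (-0.12), Nr2f2 (-0.09) and Pam (-0.13) had negative ones with overlap.

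**Figure D3:**
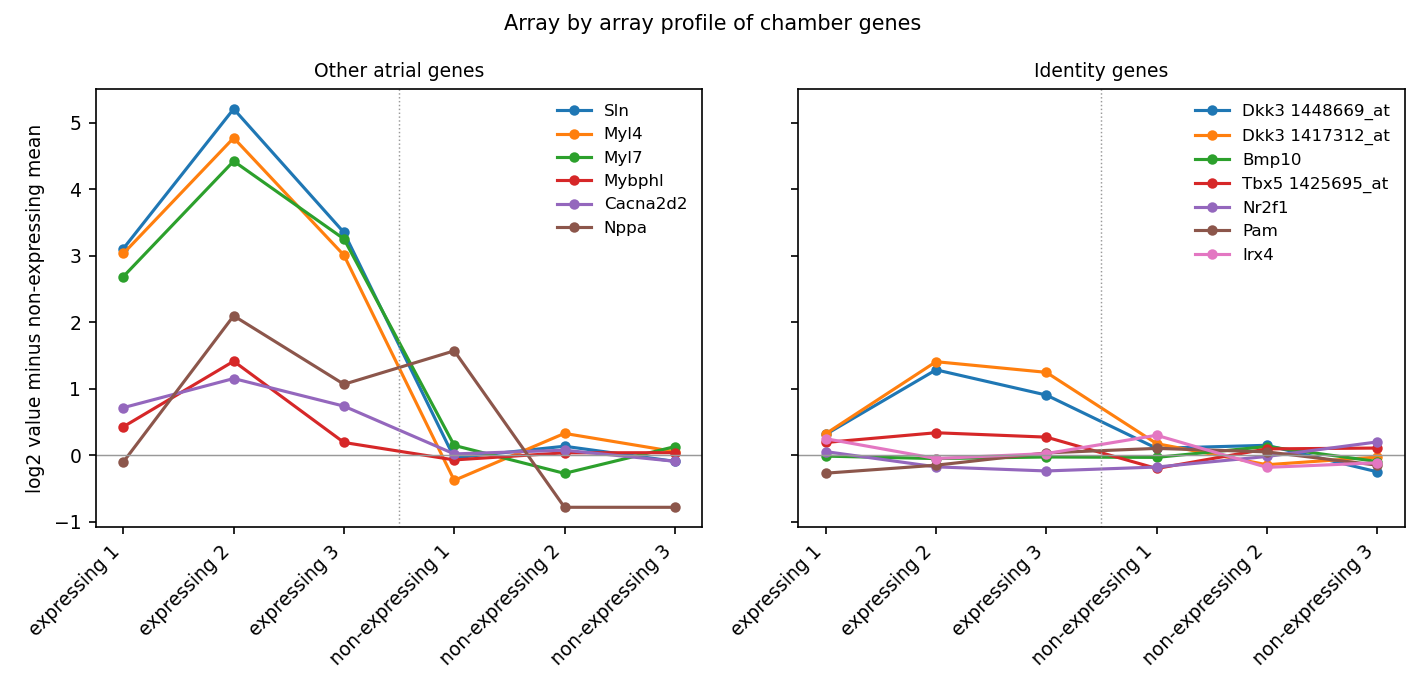
Log2 value of each array minus the mean of the non-expressing arrays, with the 3 PR-M expressing arrays left of the 3 non-expressing arrays; left panel, 6 other atrial genes, and right panel, 7 probe sets of 6 identity genes; lines only join the points of a probe set. Sln, Myl4, Myl7 and both Dkk3 probe sets peak in expressing replicate 2, Nppa is high in non-expressing replicate 1, and Bmp10, Nr2f1, Pam and Irx4 stay near 0.

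No other gene of ventricular muscle passed. Of the 9 measured none did so, the median was -0.03, and the groups did not overlap in 3, expressing lower, against 10.8% of all genes. Myl2 and Myl3, the ventricular light chain genes, were at 14.67 ± 0.04 and 14.55 ± 0.01 in the expressing arrays and at 14.70 ± 0.05 and 14.59 ± 0.02 in the non-expressing arrays (SD, n = 3 each). Such values almost reach the highest signal on the arrays, 14.8, which leaves little room to see a rise. How well these probe sets would show a fall was not tested. Myh7, which encodes the slow heavy chain of myosin, was at 9.75, 9.97 and 9.82 in the expressing arrays, against 10.13, 10.33 and 10.51 in the non-expressing arrays (log2 -0.48, limma adjusted p 0.212 over genes). Kcnj2, an inward rectifier channel gene, lay under the receptor mark in all arrays (log2 -0.24). Gja1, the main ventricular gap junction gene, differed by 0.24, and by 0.43 without non-expressing replicate 1. Its other probe sets differed by -0.21 to 0.41, all with overlap. Pln differed by -0.05 on its brightest probe set and by 0.10 and 0.35 on the others. On 1423359_at, at 0.35, the groups did not overlap, expressing higher, and the test was not passed. All 6 general cardiac muscle genes, among them Myh6 and Tnnt2, were above the receptor mark in every array, with a list mean of 13.96 to 14.04 in the expressing arrays and 13.86 to 14.03 in the non-expressing arrays.

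Relatives and partners of the identity genes were described from fixed lists, and no gene of them passed over all genes. Of 7 other T-box genes, Tbx3, a repressor of the conduction system and sinus node, was at 7.78, 7.57 and 7.88 in the expressing arrays and at 7.33, 7.33 and 7.25 in the non-expressing arrays (log2 0.44, SE 0.10, limma adjusted p 0.208 over genes). Its 4 other probe sets differed by -0.19 to 0.22. Tbx18, a factor of the sinus node and epicardium, was at 7.47, 7.22 and 7.10 in the expressing arrays, against 7.57, 7.77 and 7.85 in the non-expressing arrays (log2 -0.47, SE 0.12, limma adjusted p 0.236 over genes). The groups parted without overlap in opposite directions on the brightest probe sets of these 2 relatives of Tbx5. The other probe set of Tbx18, under the receptor mark, differed by -0.21 with overlap. Among 5 partner factors of Tbx5 the 2 with the lowest p were Myocd (log2 0.33) and Hand2 (log2 0.37). On their brightest probe sets Gata4, Nkx2-5 and Mef2c had smaller differences, within a list range of -0.07 to 0.37. Other probe sets of Hand2 differed by 0.03 and -0.29, that of Myocd by -0.18, and those of Mef2c by -0.34 to 0.22. That of Gata4 lay under the receptor mark and differed by -0.20, against 0.10 on its brightest probe set. The groups did not overlap on this dim Gata4 probe set, expressing lower, and the test was not passed. With probe sets averaged the differences were 0.08 for Myocd and 0.04 for Hand2.

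No relative of the other members passed either. The 3 nuclear receptors next to the COUP factors had a median of -0.07, with Nr2c2 at 0.10 and Nr2c1 at -0.12 (-0.21 without non-expressing replicate 1). Among 4 Hey and Hes genes, Hes1, a Notch target, had the lowest p, with a log2 difference of 0.33 (SE 0.09, limma adjusted p 0.299 over genes), and Hes5 differed by -0.15. The 8 Notch receptors, ligands and mediators had a median of 0.03, with Notch4 at -0.25 (-0.37 without non-expressing replicate 1) and Dll4 at 0.17. Irx1 and Irx2, relatives of Irx4, differed by -0.21 and -0.17, the second by -0.46 without non-expressing replicate 1. None of the 4 other Dickkopf genes rose above the receptor mark in any array, and Dkk2 and Dkk4 differed by 0.26 and -0.17. The secretory granule list, 6 of 7 measured, had a median of -0.09, with Cpe, the carboxypeptidase that acts before Pam on some peptides, at 0.21 and Chga at -0.13.

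The pathway of Bmp10 was described from ligands to targets, and it showed no difference that passed. Of 6 other ligands Bmp5 differed by -0.25 and Gdf2, the gene of BMP9, which shares receptors with BMP10, by 0.22, or 0.14 without non-expressing replicate 1. The 6 receptor genes, among them Acvrl1 and Bmpr2, had a median of 0.05, with Bmpr2 at 0.15 and endoglin, Eng, at 0.11. Of 6 targets 5 were higher and 1 lower in the expressing arrays, with a median of 0.17. Smad6, an inhibitor of the pathway, differed by 0.20 (limma adjusted p 0.527 over genes) and Id2 by 0.24 (limma adjusted p 0.531 over genes).

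Markers of other cell types were read beside Dkk3 and Nr2f2, which are also made outside muscle. No marker passed. All 5 fibroblast markers were higher in the expressing arrays, with a median of 0.19, and 3 did not overlap, against 8.16% of all genes. Pdgfra differed by 0.22 and Tcf21 by 0.19, and the summed linear level of the 5 was 14160 to 15470 in the expressing arrays and 12100 to 13640 in the non-expressing arrays. Dkk3 differed by more than any of these 5, and their part in its difference was not tested. The 4 smooth muscle markers had a median of 0.30, with Tagln at 0.56, Acta2 at 0.48 (0.74 without non-expressing replicate 1) and Myh11, the smooth muscle myosin gene, at 0.08. Their summed level was 1548 to 2357 in the expressing arrays and 1033 to 1925 in the non-expressing arrays, and Cnn1 lay under the receptor mark in all arrays and Myh11 above it. The 4 epicardial and mesothelial markers had a median of 0.12, with Upk3b at 0.37, Msln at 0.23, Krt19 at 0.02 and Wt1 at -0.03. Krt19 lay under the receptor mark in all arrays. The summed level of the 4 was 415.2 to 787.2 in the expressing arrays and 452.0 to 687.2 in the non-expressing arrays.

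Markers of the vessels, nerves and node completed this reading. The 5 venous and lymphatic markers, all above the receptor mark, had a median of -0.06, with Ephb4 at -0.21 and Prox1 at -0.06. Their summed level was 935.3 to 1446 in the expressing arrays and 996.1 to 1559 in the non-expressing arrays. Among them Lyve1 was at 7.28, 9.22 and 9.36 in the expressing arrays and at 7.75, 9.24 and 9.33 in the non-expressing arrays. Its log2 difference was -0.15 (SE 0.58), and replicate 1 was the lowest array in each group. The 5 general endothelial markers had a median of 0.05, with Emcn at 0.29 (0.17 without non-expressing replicate 1) and Pecam1 at 0.20, and the 5 arterial ones of -0.04, with Dll4 at 0.17 and Sox17 at -0.17. Of 4 measured sinus node and conduction genes 3 were higher, Tbx3, Shox2 and Cntn2, with a summed level of 364.5 to 410.1 in the expressing arrays and 276.4 to 291.0 in the non-expressing arrays. Shox2, a sinus node factor, differed by 0.61 (limma adjusted p 0.228 over genes), or by 0.20 with its probe sets averaged. Cntn2, a contactin gene of the conduction system, differed by 0.52 on its brightest probe set and by 1.39, 0.93 and -0.18 on 1435165_at, 1456962_at and 1450523_at, the last 3 without overlap and none past the threshold. Shox2 and Isl1 lay under the receptor mark in all arrays. Of 3 adipocyte markers Adipoq was at 6.10, 7.83 and 6.90 in the expressing arrays, against 5.92, 6.53 and 5.98 in the non-expressing arrays. It differed by 0.80 and Lep by 0.18 (0.10 without non-expressing replicate 1), with a summed level of 95.2 to 261.4 in the expressing and 87.1 to 120.3 in the non-expressing arrays. Of 2 Schwann cell markers Mbp differed by 0.88 (limma adjusted p 0.117 over genes), or by 0.33 with its probe sets averaged, and Sox10 by 0.05, with a summed level of 235.4 to 269.4 in the expressing and 183.7 to 200.7 in the non-expressing arrays. Ryr2, with the lowest p of the cardiac muscle markers, differed by 0.35, and by 0.64 without non-expressing replicate 1. The part of these cells in the difference of Dkk3 was not tested.

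The gene whose profile over the 6 arrays was most like that of each member is given as a description, since with 6 arrays of 2 groups very high correlations arise among 18193 genes. For Dkk3 it was Postn, the periostin gene of matrix-forming fibroblasts, with a Pearson r of 0.990. Postn was at 9.44, 10.08 and 9.90 in the expressing arrays, against 9.29, 9.24 and 8.89 in the non-expressing arrays (log2 0.67, limma adjusted p 0.255 over genes). For Tbx5 it was Fgl2, at r = 0.999, with a log2 difference of 0.74, or 0.44 without non-expressing replicate 1, its lowest array, at 8.01. For the others it was Tmem132c for Bmp10 (r = 0.997), Slc4a5 for Nr2f1 (0.995), Ntn5 for Nr2f2 (0.998), Ikbip for Hey2 (0.987), Fibp for Irx4 (0.998) and Gm32219 for Pam (0.995). None of these 8 genes passed, and each likeness was shared by other genes, with 14 to 78 genes over an r of 0.95.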

How the data were processed

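The 6 RNA samples were grouped by the labels, and replicates were numbered in record order, so a number pairs no samples. Per the labels, 500 ng of Trizol RNA was amplified and labelled with biotin. Per the submitters' processing notes, RMA and Partek 6.6 were used, with other settings not given in the sources used here. Each probe set has 1 deposited value per array, taken as log2 from its range of 2.10 to 14.8. Of 45101 probe sets 64 controls were left out, and 34945 of the rest have 1 symbol.

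The groups were compared with limma 3.58.1 (R 4.3.3, default prior, two-sided) and Benjamini-Hochberg adjustment at 0.05. The brightest probe set on average stood for a gene, with its p adjusted over 18193 genes. All differences run expressing minus non-expressing, with the moderated SE and an unadjusted 95% interval. The fit was tested on simulated data. Precision is limited by the number of arrays. The members and lists were chosen with earlier results of these data known. Named genes are the 8 members, Sln, Myl4, Myl7, Nppa, Myl2, Myl3, Myh7, the 2 other genes of each list with the lowest p where none of them passed, and the gene most alike to each member. Gata4, Nkx2-5, Mef2c, Acvrl1, Cntn2, Isl1, Cnn1, Myh11, Angpt1 and Myh6 were named beyond this rule, with values seen. So were Kcna5, Gja5, Kcnj5, Stard10, Kcnj3, Wt1, Krt19, Pln and Lyve1. Alternatives were other scalings, filters, priors and weights, other probe sets, each array left out, and a random block by title prefix (statmod 1.5.0, correlation 0.117). Each prefix holds 1 group, so no value within a prefix could be had.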

Additional observations from a re-analysis of the deposited data

How the results depend on the processing

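No member gene passed under any of the 17 alternatives run over genes. Among member probe sets the count was 0 under every alternative except without expressing replicate 1, where it was 1 (Dkk3 1417312_at), a range of 0 to 1 with 1 array left out. No ventricular gene passed under any of the 17. The count of other atrial genes, 3 of 12, was 1 with an intensity trend and robust prior (Cacna2d2, with Sln, Myl4 and Myl7 lost), 1 without probe sets ending in _x_at or _s_at (Myl7) and 4 with array weights (Cacna2d2 added). It was 0 when the title prefix entered as a random block, 0 with ordinary statistics, 0 when a gene's probe sets were averaged and 0 with the prior estimated over genes, an alternative added after the data were seen. It was 0 to 3 with 1 array left out. The cause of these losses was not tested.

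The count of all probe sets past the threshold, 6, was 31 with dim probe sets left out, 37 with the trend and robust prior, 43 with array weights, 2 with ordinary statistics and 0 to 44 with 1 array left out. That of all genes, 12, was 23 with the trend and robust prior, 26 with array weights, 4 with the prefix block, 3 without _x_at and _s_at probe sets, 1 with ordinary statistics, 4 with the prior estimated over genes, 1 with probe sets averaged and 0 to 18 with 1 array left out.

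Differences near 0 changed sign. With 1 array left out Bmp10 ranged from -0.079 to 0.033, Nr2f2 1436475_at from -0.10 to 0.11, Irx4 from -0.019 to 0.22, Irx1 from -0.37 to 0.027, Irx2 from -0.46 to 0.13, Prox1 from -0.15 to 0.052, Sox10 from -0.048 to 0.054, Sox17 from -0.29 to 0.026, Tmem132c from -0.13 to 0.032 and Fibp from -0.0089 to 0.21. Nr2f2 1436475_at was -0.023 with array weights. Averaged over probe sets, Nr2c1 was 0.086, Bmpr2 -0.032 and Sox10 -0.10. Of the 217 values for member probe sets under alternatives, 6 changed sign. Both Dkk3 and both Tbx5 probe sets kept their sign under every alternative that held them, with Dkk3 1448669_at from 0.61 to 1.09. No paired analysis was possible because the labels give the groups no shared replicate numbers. Of the 15 member probe sets 8 lie under the receptor mark.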
